A study of Mus musculus with 20 samples.

Results

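The genes described here are the 5 anterior pituitary hormone genes Gh, Prl, Tshb, Cga and Pomc, measured in RNA from whole mouse brain. They are 5 of the 19463 genes in the table. They were chosen by the measured values of Gh, which were very high in single mice, so the levels of Gh are given as a description and were not tested. Male C57BL/6J mice were studied at P21 (3 weeks) and at P70 (10 weeks). At each age 5 Katnal2-KO mice were compared with 5 WT mice, which gives 4 groups and 20 mice. Katnal2-KO mice were homozygous for a frame-shifting deletion of exon 3 of Katnal2, a gene of the katanin family of microtubule-severing proteins. The allele came from EUCOMM embryonic stem cells and was recombined by Flp and then by Cre, which was applied to early embryos rather than driven in a cell type, so every cell of the animal carries it. The line was backcrossed to C57BL/6J, and both genotypes were housed together. The design asks whether loss of Katnal2 changed brain transcripts at either age.

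The anterior pituitary hangs below the hypothalamus and releases its hormones into the blood. Somatotrophs make growth hormone (Gh), lactotrophs make prolactin (Prl), thyrotrophs make thyrotropin and corticotrophs make pro-opiomelanocortin (Pomc). Thyrotropin is a pair of chains, a β subunit from Tshb and an α subunit from Cga, which the gonadotropins share. Some of these genes are also active outside the anterior lobe. Tshb and Cga are transcribed in the pars tuberalis, a sheet of pituitary cells along the stalk at the base of the hypothalamus. Pomc is made in neurons of the arcuate nucleus, where its peptides restrain feeding, and in melanotrophs of the intermediate lobe. In bulk RNA, a different number of cells of a type and a different amount of RNA per cell cannot be told apart.

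All values are normalized counts, the read counts that the authors scaled with DESeq2, and they are compared between genes only per kilobase of transcript. The values of each mouse summed to between 27310523 and 28423042. From the spacing of low values, the depth was about 23300000 to 35700000 reads per mouse, and 1 read was worth about 0.774 to 1.18 normalized counts. A value of 0 therefore allows a level of up to 2.32 to 3.54 normalized counts (3 reads) depending on the mouse, for counting error only. Katnal2 itself was at 78.1 to 96.0 in KO and 99.3 to 115.4 in WT mice at P21, and at 95.1 to 125.5 in KO and 101.3 to 141.5 in WT mice at P70. Gene-level values do not show the deleted exon and do not check the genotype. P21 KO mouse 3 stood apart from its group, with the highest value of its 5 mice in 29.0% of all genes, and both P70 mice numbered 5 stood apart together. Nothing in the labels names a batch.

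In GRCm38, Gh lies at chr11:106300271-106301865 on the minus strand. Prl lies at chr13:27057570-27065205 on the plus strand. Pomc lies at chr12:3954951-3960642 on the plus strand, Tshb at chr3:102775465-102782718 on the minus strand and Cga at chr4:34893779-34907370 on the plus strand. These spans cover exons, introns and untranslated ends, and the values count reads over the spliced transcripts. RefSeq promoters (GRCm38.p6) matched Prl, Pomc, Tshb and Cga. The 250 bases before the RefSeq start are shown for Prl, the gene whose level followed Gh most closely, and for the genes of both thyrotropin chains, which were high in the same mice. They run 5′ to 3′ along the gene's strand, from chr13:27057320-27057569 for Prl, chr3:102782715-102782964 for Tshb and chr4:34893529-34893778 for Cga. Capitals mark matches to ATGNATA on either strand, the core that the pituitary factor Pit-1 is known to bind.
Prl: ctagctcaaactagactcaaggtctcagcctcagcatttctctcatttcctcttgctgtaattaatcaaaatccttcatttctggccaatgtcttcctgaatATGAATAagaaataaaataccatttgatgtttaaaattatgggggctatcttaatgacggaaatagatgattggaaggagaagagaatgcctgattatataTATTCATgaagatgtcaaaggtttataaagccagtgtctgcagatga
Tshb: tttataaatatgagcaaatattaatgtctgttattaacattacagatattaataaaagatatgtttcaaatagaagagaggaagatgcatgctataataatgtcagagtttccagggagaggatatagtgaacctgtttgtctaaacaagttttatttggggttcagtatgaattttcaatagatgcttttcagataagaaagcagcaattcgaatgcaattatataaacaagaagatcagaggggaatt
Cga: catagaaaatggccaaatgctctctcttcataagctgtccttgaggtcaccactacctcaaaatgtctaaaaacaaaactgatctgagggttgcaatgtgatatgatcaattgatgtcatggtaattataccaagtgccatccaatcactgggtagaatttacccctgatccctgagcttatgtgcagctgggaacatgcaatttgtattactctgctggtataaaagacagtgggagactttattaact
The Prl window held 2 such matches, which begin at positions -148 (plus strand) and -47 (minus strand) from the start. The windows of Tshb, Cga and Pomc held 0 matches, which says only that these letters are not in them. Among all 32851 promoter windows of this length, 7.92% held the motif. The letters TATAAA or their reverse complement, the TATA box, were present in all 4 windows and in 12.4% of all windows. On the gene's own strand the match nearest the start began at -24 in Prl, -25 in Pomc, -27 in Tshb and -30 in Cga, and Tshb held another at -248. The CRE core TGACG was found on either strand in Prl only of the 4, and in 17.8% of all windows. These matches are a description of the letters and not evidence of binding.

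Gh, the growth hormone gene, was near 0 in most brains and high in a few. In P21 KO mice 1 to 5 it was at 2.9, 20.9, 1113.2, 6.2 and 0.0 normalized counts. In P21 WT mice 1 to 5 it was at 2.3, 1811.3, 1.6, 0.0 and 0.0. A single mouse in each genotype therefore held nearly all of the Gh at P21. In P70 KO mice the values were 19.6, 1.2, 6179.0, 347.6 and 3.5, and in P70 WT mice they were 9.5, 89.5, 2.3, 29.2 and 0.0. At P70 the high values were more graded, and KO mouse 3 stood at 535 times the median of the other 4 mice of its group. The genotype groups overlapped at both ages, and the age groups overlapped in both genotypes. Mean ± SD was 229 ± 495 in P21 KO, 363 ± 810 in P21 WT, 1310 ± 2726 in P70 KO and 26.1 ± 37.3 in P70 WT mice (n = 5 each), so the SD exceeded the mean in every group. Over all 20 mice, 8 were at 10 or more and 4 were listed at 0.

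Prl, the prolactin gene, was high in the same mice at lower levels. It was at 0.0, 5.2, 38.3, 0.0 and 0.0 in P21 KO mice 1 to 5 and at 0.0, 58.8, 0.0, 0.0 and 0.0 in P21 WT mice. At P70 it was at 3.4, 0.0, 1043.9, 40.4 and 0.0 in KO mice and at 1.2, 11.5, 1.1, 5.8 and 0.0 in WT mice. The highest Prl mouse was the highest Gh mouse in all 4 groups, and 10 of the 20 mice were listed at 0. The proportion of the hormones differed between the high mice. Per kilobase, Gh was 30.2 and 32.0 times Prl in the highest P21 KO and P21 WT mice. At P70 the ratio was 6.15 in KO mouse 3, 8.93 in KO mouse 4 and 8.11 in WT mouse 2. The P21 and P70 ratios do not overlap, and they rest on 2 and 3 mice that were chosen for their levels, so the difference was not tested.

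Cga, the shared α subunit, separated 3 mice from the other 17. It was at 3.0, 4.3, 65.7, 2.7 and 3.1 in P21 KO mice and at 3.1, 97.3, 6.2, 3.9 and 2.5 in P21 WT mice. At P70 it was at 6.8, 0.0, 118.5, 6.0 and 0.0 in KO mice and at 3.5, 3.4, 3.4, 4.0 and 2.3 in WT mice. The 3 high mice were P21 KO mouse 3, P21 WT mouse 2 and P70 KO mouse 3, the highest Gh mice of their groups. The fourth mouse with Gh over 100, P70 KO mouse 4, had Cga at 6.0, no higher than mouse 1 of its group.

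Tshb, the thyrotropin β subunit, was present in every mouse and had a raised value in the same 3 mice. It was at 76.6, 89.1, 213.9, 102.8 and 84.5 in P21 KO mice and at 82.5, 288.4, 82.2, 89.7 and 61.7 in P21 WT mice. At P70 it was at 69.1, 43.3, 109.6, 47.6 and 34.0 in KO mice and at 48.0, 53.2, 59.5, 85.5 and 41.7 in WT mice. The highest mice stood at 2.47, 3.50 and 2.41 times the median of the other 4 mice of their group in P21 KO, P21 WT and P70 KO. In P70 WT, mouse 4 was highest, which was not the highest Gh mouse. Per kilobase, Tshb was 3.70 and 3.37 times Cga in the high P21 mice and 1.05 times Cga in P70 KO mouse 3.

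Pomc, the precursor of corticotropin, melanocortins and β-endorphin, was also present in every mouse, from 38.3 to 175.6. It was at 44.4, 53.4, 85.3, 43.7 and 50.2 in P21 KO mice and at 48.7, 88.8, 53.5, 38.3 and 49.2 in P21 WT mice. At P70 it was at 64.9, 79.1, 175.6, 95.9 and 71.4 in KO mice and at 64.1, 47.5, 48.2, 60.4 and 87.4 in WT mice. The highest mouse was the high-Gh mouse in the first 3 of these groups and mouse 5 in P70 WT. P70 KO mouse 3 was at 2.33 times the median of the other 4 mice of its group, far below its 535 for Gh.

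**Figure D1:**
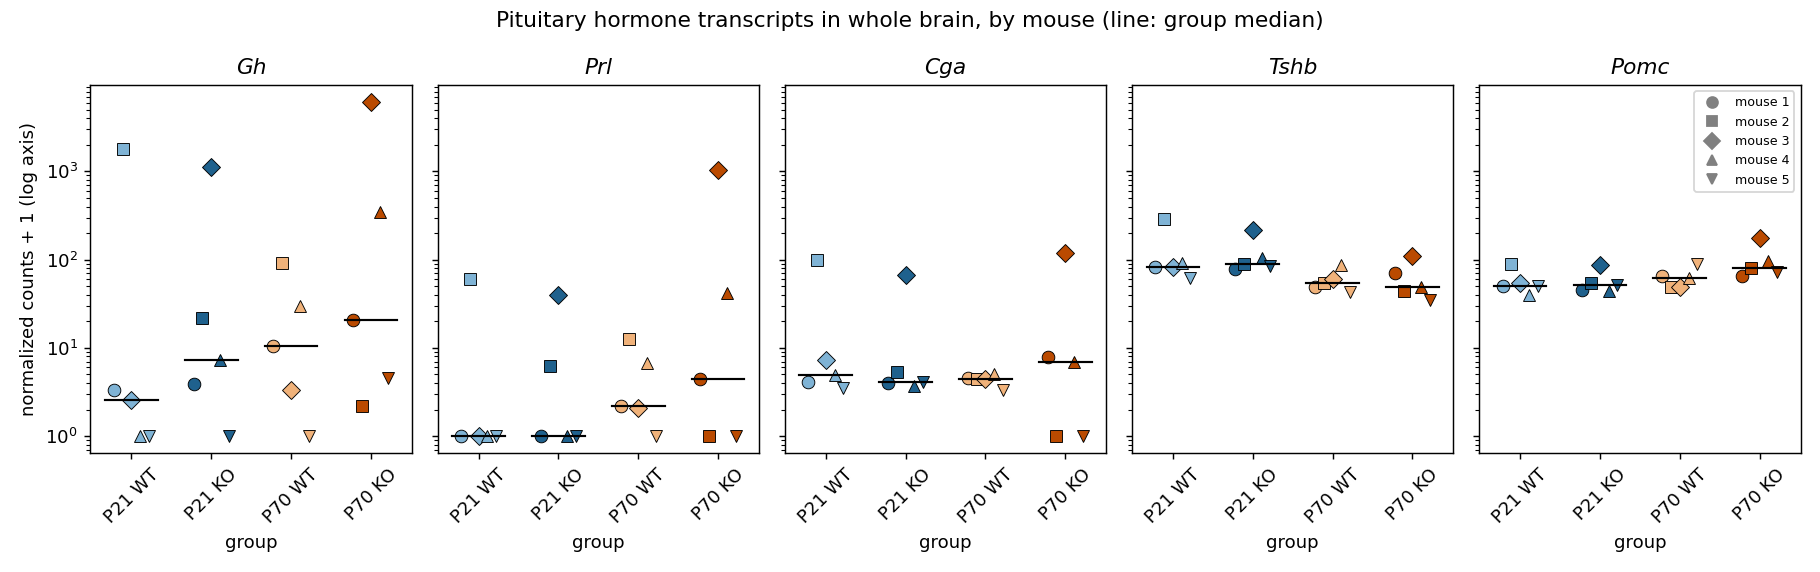
Normalized counts plus 1 (log axis) of each hormone gene in each of the 20 mice, by group, with the marker shape giving the mouse number and the line the group median. P21 WT mouse 2 and the mice numbered 3 of P21 KO and P70 KO are the highest of their groups in every panel, while Prl also reaches 40.4 in P70 KO mouse 4 and 11.5 in P70 WT mouse 2.

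The order of the genes depended on the mouse. By the median over 20 mice per kilobase, Tshb was highest at 131 normalized counts, then Pomc at 54.6, Gh at 5.7, Cga at 5.0 and Prl at 0.6. The medians of Gh, Cga and Prl correspond to few reads, so their order there is not resolved. In P70 KO mouse 3 the order was Gh at 7168, Prl at 1166, Tshb at 181, Cga at 173 and Pomc at 168 per kilobase. In P21 WT mouse 2 it was Gh at 2101, Tshb at 477, Cga at 142, Pomc at 85.1 and Prl at 65.7. Gh thus led in both of these mice, and Prl ranked above Tshb only in the older of them.

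Whether mice high in one hormone were high in the others was examined on log2(normalized counts + 1), with 60 relations in all (10 pairs of genes in 6 sets of mice). The members were chosen by Gh, and Prl and Cga were at 10 or more in 5 and 3 mice only, all of them among the mice highest in Gh, so all relations are given as a description with no test. Gh and Prl had Pearson r = 0.960 and Spearman rho = 0.911 over 20 mice, and r was 0.952 without the 2 mice farthest from the median Gh. Over the 17 mice with Cga under 10, r was 0.935 and rho was 0.853, with r = 0.840 without the 2 farthest mice. Within P21 r was 0.969 and fell to 0.742 without the 2 farthest mice, where Prl was above 0 in 1 mouse only. Within P70 r was 0.978, and 0.940 without the 2 farthest mice. Gh and Pomc had r = 0.695 and rho = 0.460 over 20 mice, and r was 0.449 without the 2 farthest mice and 0.316 over the 17 mice. Within P21 their r was 0.912 and fell to 0.299 without the 2 farthest mice, and within P70 it was 0.576 and turned to -0.673. Over the 17 mice Gh had r = 0.359 with Cga and r = -0.101 with Tshb.

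Among the other pairs the values also differed with and without the 3 mice that Cga set apart. Pomc and Tshb had r = 0.127 and rho = -0.098 over 20 mice, and r = -0.724 and rho = -0.664 over the other 17 mice, which span both ages. Among those 17, r was -0.269 within P21 (n = 8) and -0.475 within P70 (n = 9), sets that were added after the values had been seen. Over all 10 mice of an age, r was 0.867 and rho 0.297 at P21, and r was 0.328 and rho -0.200 at P70. The sign of this relation thus depended on the high mice and on the measure. Tshb and Cga, the partner chains, had r = 0.808 and rho = 0.611 over 20 mice. Within P21 r was 0.957 and rho 0.612, and r fell to 0.222 without the 2 mice farthest from the median Tshb. Within P70 r was 0.833 and rho 0.796, and r was 0.759 without the 2 farthest mice. Prl and Cga had r = 0.832 and rho = 0.775 over 20 mice. Over the 17 mice, where Cga was at 0.0 to 6.8 normalized counts and so within a few reads of 0, r was 0.559 for Tshb with Cga and 0.448 for Prl with Cga.

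**Figure D2:**
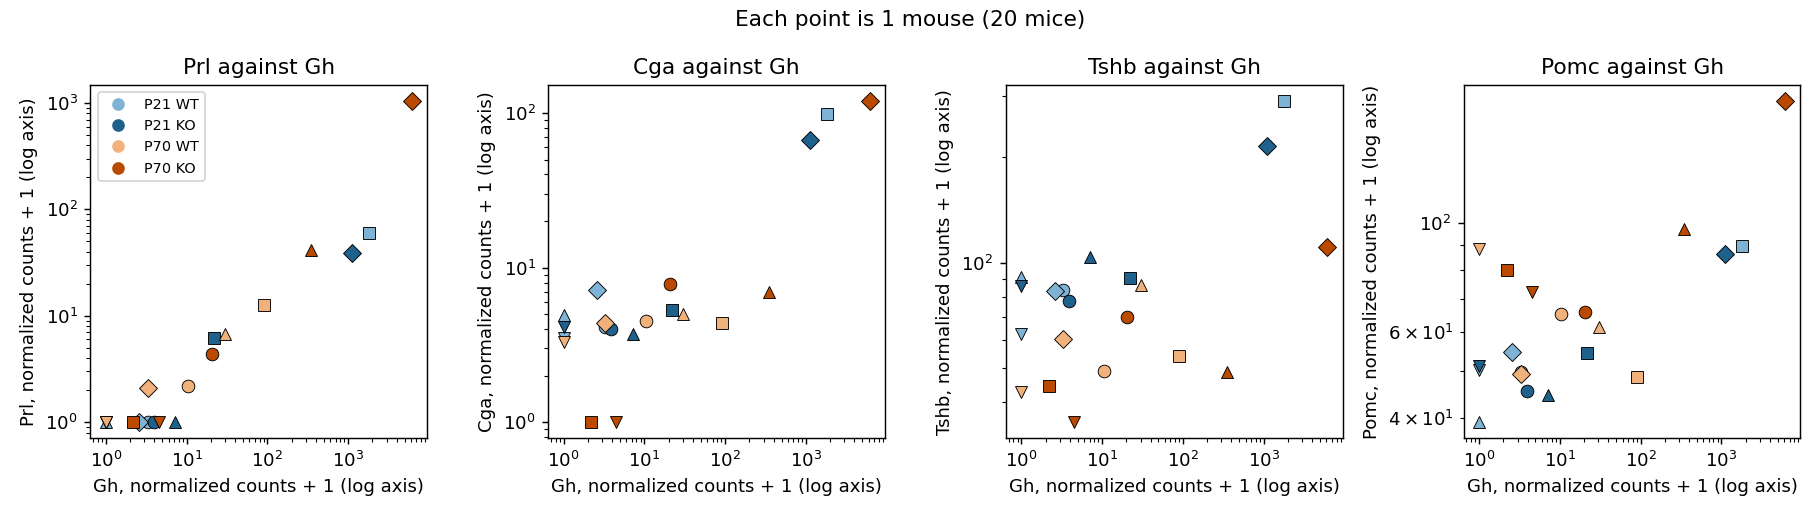
Prl, Cga, Tshb and Pomc against Gh, each point 1 of 20 mice, on log axes of normalized counts plus 1, with color giving the group. Prl is high where Gh is high (r = 0.960) and is listed at 0 in 10 mice with Gh from 0.0 to 6.2, whereas Cga is raised in 3 mice only and P70 KO mouse 4, with Gh at 347.6, has Cga at 6.0.

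The genes whose pattern over the 20 mice was most like that of Gh were named by Pearson r among 19462 other genes, as a description. Prl was first (r = 0.960) and Cga second (r = 0.828). Then came Slc47a1 (r = 0.701), Pomc (r = 0.695), Sfrp1 (r = 0.695), Wnt2 (r = 0.691), 4930562C15Rik (r = 0.683), Mdm2 (r = 0.680), Zic4 (r = 0.679) and Gbp11 (r = 0.671). Tshb had r = 0.552, with 59 genes outside the hormone list at or above it. The values for Cga, Tshb and Pomc include the 3 mice with high Cga and are higher than over the other 17 mice. By Spearman rho, 4 of these 10 genes were again among the first 10. Slc47a1, an organic cation exporter, ranged only from 89.0 to 193.6 normalized counts, so the likeness there is of pattern and not of size.

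Between Katnal2-KO and WT mice, neither Pomc nor Tshb passed the test at either age. Only these 2 were at 10 or more in every mouse, and the counts of hormone genes called cover them alone. Prl and Cga passed the filter on low values through 1 to 3 mice in these comparisons, so their differences are given as values with no test. At P21, 0 of 2 passed an adjusted p of 0.05 in limma, where 0% of 17610 genes tested were called and 429 had an unadjusted p under 0.05. At P70, 0 of 2 passed, where 0% of 17613 genes were called and 199 had an unadjusted p under 0.05. With 5 against 5 mice the exact permutation test cannot go below p = 0.00794. At P21 the log2 difference (KO minus WT) of Pomc was 0.00 (95% CI -0.49 to 0.50) and that of Tshb was 0.04 (95% CI -0.76 to 0.85). At P70 the difference of Tshb was 0.00 (95% CI -0.66 to 0.65), so a change of Tshb by 1 log2 unit lies outside both intervals. Prl at P70 had a mean of 217.5 ± 462.3 in KO and 3.9 ± 4.8 in WT mice (SD, n = 5), and the difference was 1.78 (SE 1.68), with KO mouse 3 at 1043.9.

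Pomc at P70 had the smaller p of these genes between genotypes. KO mice had a mean of 97.4 ± 45.2 and WT mice one of 61.5 ± 16.2 (SD, n = 5). The log2 difference was 0.59 (SE 0.27), with p = 0.0467 and adjusted p = 1 by limma and an exact two-sided permutation p of 0.0635. It was 0.35 without P70 KO mouse 3, 0.25 without the mice with Gh over 100, 0.72 without P70 WT mouse 5 and 0.81 without both P70 mice numbered 5. The groups overlapped, since P70 WT mouse 5 at 87.4 lay above 3 of the 5 KO mice. The age by genotype interaction, fitted over all 20 mice, called 0 of 2 genes and 0% of 17637 genes in limma, with 296 genes at an unadjusted p under 0.05. For Pomc it was 0.59 (SE 0.37, limma adjusted p = 1), and it was 0.35 without P70 KO mouse 3, 0.23 without the mice with Gh over 100 and 0.81 without both P70 mice numbered 5.

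Between P21 and P70, neither gene passed the threshold within a genotype in the fit of all mice compared without a replicate block. Mean Tshb was 57.6 ± 16.9 at P70 and 120.9 ± 94.2 at P21 in WT mice (SD, n = 5). The log2 difference was -0.85 (SE 0.34, limma adjusted p = 0.140, exact two-sided permutation p = 0.0397), and it was -0.48 without P21 WT mouse 2 (limma adjusted p = 0.202). In KO mice it was 60.7 ± 30.2 at P70 and 113.4 ± 57.0 at P21, with a log2 difference of -0.90 (SE 0.33, limma adjusted p = 0.122, exact two-sided permutation p = 0.0635). Pomc was at 97.4 ± 45.2 at P70 and 55.4 ± 17.2 at P21 in KO mice, a log2 difference of 0.75 (SE 0.27, limma adjusted p = 0.112, exact two-sided permutation p = 0.0317). In KO mice Tshb passed without mouse 3 of P70 (-1.14, limma adjusted p = 0.0489), Pomc passed without mouse 5 of P70 (0.83, limma adjusted p = 0.0473), and both passed with the replicate number as a block (limma adjusted p = 0.0333 for Pomc and 0.0300 for Tshb). In WT mice the Pomc difference was 0.16 (SE 0.23, limma adjusted p = 0.712). It was 0.34 without P21 WT mouse 2, 0.04 without P21 WT mouse 4 and 0.03 without P70 WT mouse 5. Here 0 of 2 were called in WT, against 9.32% of all 17630 genes. In KO, 0 of 2 were called, against 8.32% of 17641. Age and the collection of the samples cannot be told apart.

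An age difference averaged over both genotypes, from a single limma fit of all 20 mice that was added after the values had been seen, called 1 of these 2 genes, against 25.4% of 17637 genes, and nothing is read from that count. The gene was Tshb, which fell by 0.88 on the log2 scale (SE 0.26, 95% CI -1.42 to -0.34, adjusted p = 0.0163). Means were 59.2 normalized counts at P70 and 117.1 at P21. Without the 4 mice with Gh over 100, a set chosen by Gh and not planned, Tshb fell by 0.69 (SE 0.16). Its adjusted p lay between 0.00647 and 0.0349 over all 30 alternatives. The Pomc difference of 0.46 in this fit did not pass the threshold (SE 0.18, adjusted p = 0.0763). It was 0.46 (SE 0.13) without those 4 mice. They include the highest Tshb and Pomc mice of P21 KO, P21 WT and P70 KO. Leaving them out narrows the spread by selection, so no test is read from that fit. Over all 20 mice the difference was 1.23 (SE 1.15) for Prl and -0.68 (SE 0.79) for Cga, with no test. Over the alternatives run it was 0.59 to 1.89 for Prl and -1.23 to -0.24 for Cga.

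**Figure D3:**
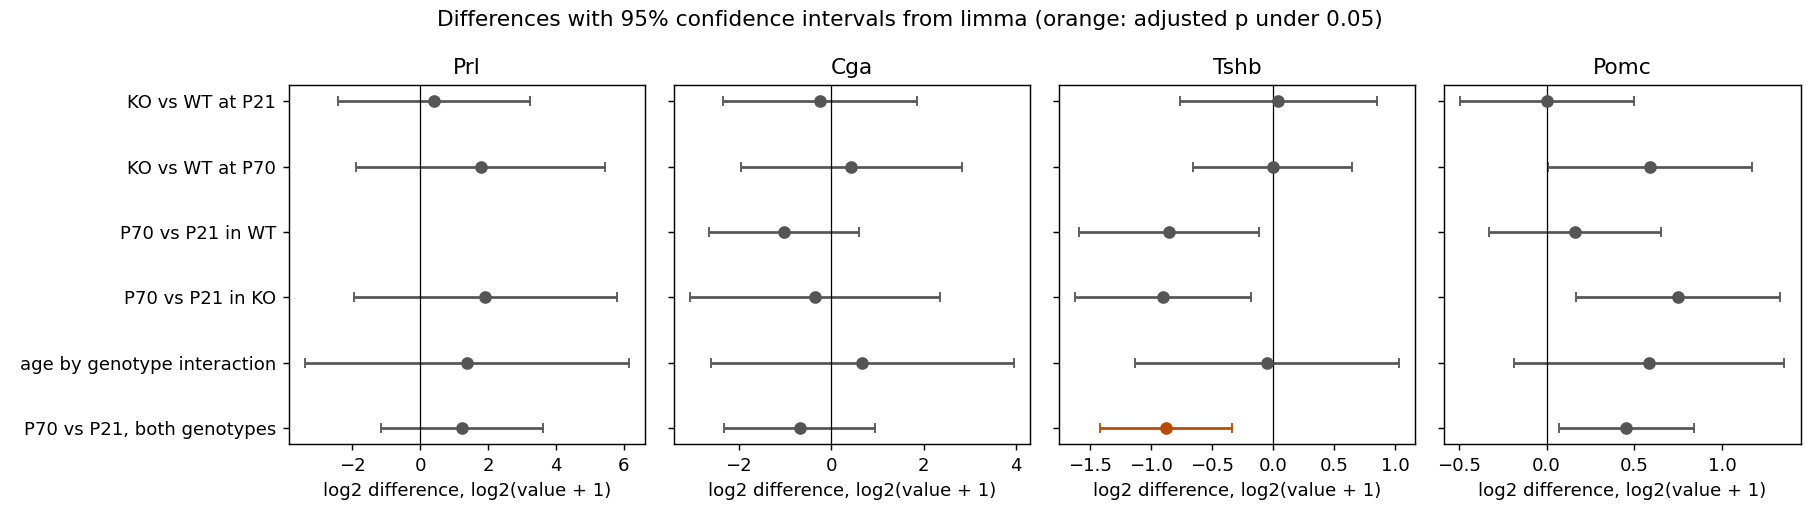
Log2 differences (first group minus second, on log2(normalized counts + 1)) of 4 hormone genes in each comparison, with 95% confidence intervals from limma. Orange marks an adjusted p under 0.05 and is read for Pomc and Tshb only. Prl and Cga passed the filter through a few high mice, so their limma intervals are drawn but not read, and no test is made of them. Prl in the WT age comparison is absent because it missed the filter. The Tshb difference of -0.88 over both genotypes is the only marked point, and the axes of the panels differ in scale.

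Other genes of the pituitary and of its control were examined as lists written from general knowledge. Of 12 pituitary lineage genes, 7 were in the table, among them Lhx3, Lhx4, Gata2, Nr5a1, Eya1 and Six6. Pou1f1, Hesx1 and Tbx19 were among those not analysed here, as were the gonadotropin chains Lhb and Fshb, so the defining markers of anterior pituitary cells could not be checked beyond the hormones. Lhx3, a homeodomain factor of the early pituitary, was at 9.3 in P21 KO mouse 3, 7.4 in P21 WT mouse 2 and 13.7 in P70 KO mouse 3, within a range of 3.0 to 13.7 over all mice. The summed level of the 7 lineage genes was 481.6, 518.1 and 510.9 in these mice, where the 20 mice spanned 418.4 to 580.8. The sum in P70 KO mouse 3 was the highest of its group, as was its Lhx3 among all 20 mice, while P21 KO mouse 3 ranked 4 of 5 and P21 WT mouse 2 ranked 3 of 5 in their groups. Gata2 and Eya1, which are active in brain and other tissues, carry most of the sum.

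Receptors that pituitary cells use to sense releasing factors, and the factors themselves, showed no call between genotypes (0 of 7 and 0 of 6 tested genes at each age). This is the share over all genes tested, of which 0% were called at each age. With age, Drd2, the dopamine receptor that restrains lactotrophs and is abundant in striatum, rose in WT mice (log2 difference 0.40, SE 0.10, limma adjusted p = 0.0241). It was 1 of 7 receptors called there, against 9.32% of all genes. Crhr1 and Sstr2, receptors for corticotropin-releasing hormone and somatostatin, rose in KO mice by 0.35 (SE 0.08, limma adjusted p = 0.0127) and 0.44 (SE 0.08, limma adjusted p = 0.00673). They were 2 of 7 receptors called there, against 8.32% of all genes. Over both genotypes, 4 of 7 receptors rose and 0 fell, with a median log2 difference of 0.28 against -0.01 over all genes tested, in a fit that called 25.4% of genes. Oxt, the oxytocin gene, rose in WT mice by 0.68 (SE 0.19, limma adjusted p = 0.0363), as 1 of 6 factors tested, against 9.32% of all genes. Over both genotypes 2 of 6 releasing factors and inhibitors rose and 1, Th, fell, against 25.4%. Both P70 mice numbered 5 were high for Oxt, at 418.5 in KO and 362.7 in WT, where the other P70 WT mice lay between 209.6 and 232.3. Without these 2 mice the WT difference was 0.54 for Oxt (limma adjusted p = 0.0384) and 0.31 for Drd2 (limma adjusted p = 0.0111), and Drd2 no longer passed over both genotypes (0.18, limma adjusted p = 0.0572). Without the mice with Gh over 100, which leaves fewer mice, the within-genotype calls of Drd2 (limma adjusted p = 0.0611), Oxt (limma adjusted p = 0.0807), Crhr1 (limma adjusted p = 0.132) and Sstr2 (limma adjusted p = 0.0729) were lost at differences of 0.38, 0.66, 0.34 and 0.46. Over both genotypes Th (-0.31, limma adjusted p = 0.155) and Drd2 (0.27, limma adjusted p = 0.121) were lost there too.

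Partners of Pomc neurons and the enzymes that cut and amidate its product were read next. Of 7 tested arcuate genes 0 were called in any comparison, including over both genotypes. The share of all genes called ran from 0% between genotypes to 25.4% with age over both genotypes. Of 6 processing enzymes, Cpe, a carboxypeptidase, fell with age in WT mice (log2 difference -0.28, SE 0.06, limma adjusted p = 0.0133), 1 of 6 against 9.32% of all genes. Over both genotypes 2 of 6 were called, against 25.4%. Cpe fell by 0.24 (limma adjusted p = 0.000267). Pcsk1n, an inhibitor of the protease Pcsk1, rose by 0.39 (SE 0.09, limma adjusted p = 0.00375), and by 0.28 without the P70 mice numbered 5 (limma adjusted p = 0.00174). Among genes that receive or relay these hormones, 0 of 12 tested were called between genotypes at P21 and 0 of 11 at P70. Of all genes tested 0% were called at either age. Cish, which is induced by growth hormone and prolactin signaling through STAT5, rose with age by 0.47 in WT (SE 0.13, limma adjusted p = 0.0343) and by 0.47 in KO mice (SE 0.10, limma adjusted p = 0.0116). The Cish call in KO mice was lost without the mice with Gh over 100 (0.54, limma adjusted p = 0.0714). Of the 12 genes 1 rose and 0 fell in WT, against 9.32% of all genes, and 1 rose and 1 fell in KO, against 8.32%. Over both genotypes 4 of these 12 genes rose and 2 fell, against the background of 25.4%. Those that rose were Cish by 0.47 (limma adjusted p = 0.000139), the prolactin receptor Prlr by 0.46 (limma adjusted p = 0.0299), the receptor Igf1r by 0.23 (limma adjusted p = 0.0339) and the transducer Stat5b by 0.11 (limma adjusted p = 0.0282). Without the mice with Gh over 100, which leaves fewer mice, Prlr, Igf1r and Stat5b no longer passed (limma adjusted p = 0.0781, 0.0829 and 0.113). The differences of these genes there were 0.49, 0.20 and 0.10, against 0.46, 0.23 and 0.11 over all mice. Tshr, the thyrotropin receptor, fell by 0.84 (SE 0.23, limma adjusted p = 0.0103), and Mc5r, a melanocortin receptor, by 0.92 (SE 0.16, limma adjusted p = 0.000186). Levels of Tshr were low, with a median of 13.3 over all mice and the highest value, 51.7, in P21 KO mouse 2. It passed in neither genotype alone (-0.35 in WT, limma adjusted p = 0.431, and -1.34 in KO, limma adjusted p = 0.0583).

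Marker lists of tissue next to the pituitary were read beside the high mice. P21 KO mouse 3 was highest of its group for 4 of 5 peripheral ganglion genes, 5 of 6 meningeal and vessel genes, 5 of 8 choroid plexus genes, 6 of 8 hypothalamic releasing factors and inhibitors and 4 of 6 POMC processing enzymes, against 29.0% of all genes. The same mouse was highest for 0 of 4 intermediate lobe melanotroph genes, 1 of 7 receptors for releasing factors and 2 of 8 arcuate genes. It was highest for 3 of 12 hormone receptor genes, 2 of 5 blood genes and 3 of 7 lineage genes. Its summed ganglion level was 1901.6, where its group spanned 1035.4 to 1901.6. P21 WT mouse 2 was highest for 1 of 5 ganglion, 0 of 6 meningeal and 2 of 8 choroid plexus genes, against 20.4% of all genes. P70 KO mouse 3 was highest for 0 of 5, 2 of 6 and 0 of 8 of them, against 12.7%. These 2 mice were highest for 0 of 8 hypothalamic factors each, for 0 of 6 and 1 of 6 processing enzymes, and for 1 of 4 and 0 of 4 melanotroph genes. Blood genes, led by the hemoglobins, were lower at P70 (5 of 5 called in WT, against 9.32% of all genes, and 4 of 5 in KO, against 8.32%). Without the mice with Gh over 100 the KO calls of blood genes were lost, with Hba-a2 at -1.02 (limma adjusted p = 0.125). In WT mice 2 of 8 choroid plexus genes rose with age, and 1 of 6 meningeal genes rose and 2 fell, against 9.32%. In KO mice 2 of 6 meningeal genes fell and 0 of 8 choroid plexus genes were called, against 8.32%. Leaving out the mice with Gh over 100 ended the calls of Kcnj13 (0.68) and Slc22a6 (0.48) in WT and Col1a1 (-0.75) in KO (limma adjusted p = 0.0939, 0.0826 and 0.0623). The part of these tissues and of the dissection in the hormone levels was not tested.

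**Figure D4:**
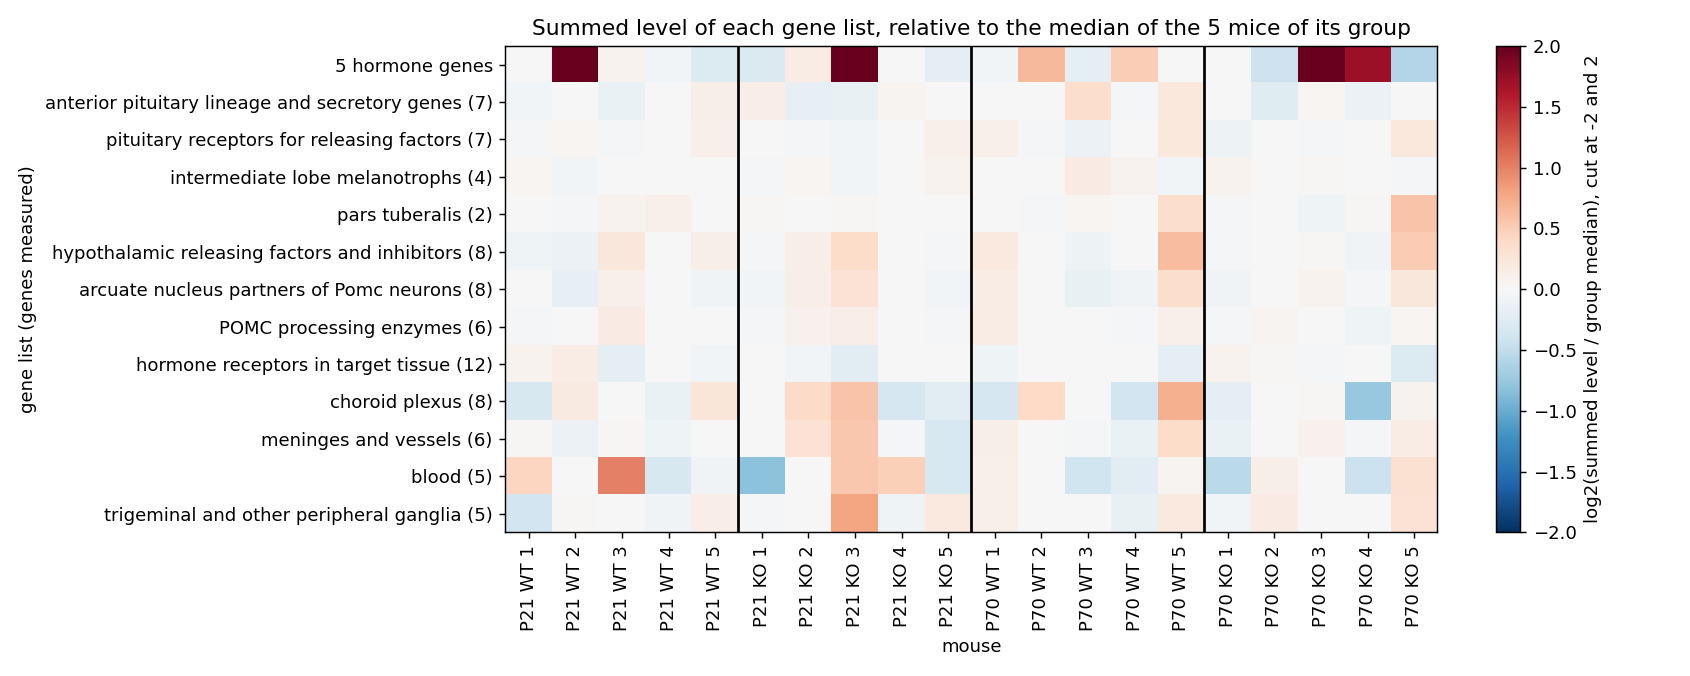
Log2 of the summed normalized counts of each gene list over the median of the 5 mice of its group, for 20 mice (columns), with the number of genes measured beside each list; the hormone genes are left out of the other lists, and colors stop at -2 and 2. The hormone row reaches 4.10, 3.29 and 5.54 in P21 WT mouse 2, P21 KO mouse 3 and P70 KO mouse 3, while the pituitary lineage row stays between -0.25 and 0.36.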

How the data were processed

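RNA from whole brain of 20 mice was sequenced as polyA-selected paired-end libraries. Reads were quantified by the authors in Salmon 1.1.0 against GRCm38, corrected for GC bias, summed per gene by tximport and scaled in DESeq2 (1.26.0 in R 3.6.2 in the submitters' processing notes). This gave the deposited signal, in normalized counts per gene and mouse. The annotation release was not given in the sources used here. Whole reads could not be recovered from the values, so no count test was run. IDs were matched to GENCODE M21 symbols (19447 of 19463), and columns were matched to mice by title.

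Genes with a mean of at least 10 over the mice compared were tested in limma 3.58.1 (R 4.3.3, trended eBayes) after taking log2(value + 1), which understates changes of low genes. p-values were adjusted by Benjamini-Hochberg over all genes tested, with a threshold of 0.05. Exact permutation tests compared 5 with 5 mice. Correlations were computed in Python 3.11.15 with numpy 2.4.6 and are given with no p-value, since high mice chose the genes. Fits and permutations were tested on simulated data. The members and lists were chosen with earlier results of these data known. Named genes were all members, for each list the genes past the threshold or with the highest levels, and the 10 genes most like Gh; only some list genes are given, and some are not reported here. The labels do not say that the mice came from separate litters, and p-values measure the spread between these mice. Alternatives were other pseudocounts, filters and limma settings, quantile normalization, the replicate number as a block, a single fit of all mice and each mouse left out.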

Additional observations from a re-analysis of the deposited data

Results flagged for a closer look

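Of the 20 sets of 5 mice examined (5 genes in 4 groups), 13 had a highest mouse whose gap to the next was large against the range of its group. The genes were picked for single high mice and are not independent, so the number is a description and is not set against a chance rate. All 13 came from 3 mice. In P21 KO mouse 3 they were Gh at 1113.2, Prl at 38.3, Cga at 65.7, Tshb at 213.9 and Pomc at 85.3 normalized counts. In P21 WT mouse 2 they were Gh at 1811.3, Prl at 58.8, Cga at 97.3 and Tshb at 288.4. In P70 KO mouse 3 they were Gh at 6179.0, Prl at 1043.9, Cga at 118.5 and Pomc at 175.6. Both genotypes and both ages are among these mice. No gene stood out in this way in the P70 WT group.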

How the results depend on the processing

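Under all alternatives run, 0 of the tested hormone genes passed the threshold between KO and WT mice at either age or in the interaction. Between ages in KO mice the count was 0, and it was 2 with the replicate number as a block (Pomc, adjusted p = 0.0333, and Tshb, adjusted p = 0.0300). It ranged from 0 to 1 with each mouse left out, with Tshb called without P70 KO mouse 3 (-1.14, adjusted p = 0.0489) and Pomc without P70 KO mouse 5 (0.83, adjusted p = 0.0473). It was 1 without both P70 mice numbered 5, an alternative chosen after seeing the data. No label pairs the mice by number. Correlations of the deviations of same-numbered mice ran from -0.009 to 0.26 (P21) and 0.075 to 0.705 (P70) between genotypes, and from -0.119 to 0.16 (KO) and -0.102 to 0.156 (WT) between ages. They were not over 0.1 for every pair, so the numbers were not taken as pairing. Mice that correlated best with their own number were 5 of 10 at P21 and 7 of 10 at P70 between genotypes, and 2 of 10 KO and 4 of 10 WT mice between ages, a hint from the data and not from the design. The block moved no other count of hormone genes. Averaged over genotypes, the count of 1 ranged from 1 to 2 with each mouse left out. It was 2 without the 4 mice with Gh over 100, a set chosen by Gh, so that count is not read as a test. Pomc was the added gene without P21 KO mouse 3, P21 WT mouse 2 or P70 KO mouse 1. The correlation of Gh with Pomc was 0.449 without the 2 mice farthest from the median Gh and 0.316 over the 17 mice with Cga under 10. That of Gh with Prl was 0.93 to 0.959 over its alternatives.

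Directions turned only for differences that were near 0 or within their error. Between genotypes at P21, Pomc was -0.0149 with quantile normalization and -0.16 to 0.18 with each mouse left out, Tshb was -0.21 to 0.42 and Cga -1.04 to 0.63. At P70, Tshb was 0.0045 with a pseudocount of 10, 0.0657 without both mice numbered 5 and -0.25 to 0.17 with each mouse left out. Cga between ages in KO mice was 0.11 with a pseudocount of 10, 0.29 without both mice numbered 5 and -1.44 to 0.45 with each mouse left out. In the interaction, Tshb was 0.0217 without both mice numbered 5 and -0.42 to 0.21 with each mouse left out, and Cga was -0.42 to 1.47. The count of all genes called between ages ranged from 912 to 3000 in WT and from 360 to 3759 in KO mice, lowest in KO without the mice with Gh over 100 and highest in both without the P70 mice numbered 5. The causes of these changes were not tested. Depth limits Prl and Cga, which lie within a few reads of 0 in most mice.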
